A study of Mus musculus with 12 samples.

Results

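Genes of brain blood vessels and of the blood-brain barrier were followed by bulk RNA-seq in mouse medulloblastoma collected at end point. The 10 genes were taken by symbol from the 15672 genes of the deposited expression table: Cldn5, Cdh5, Pecam1 and Esam (junctions between endothelial cells), Tie1 and Emcn (a receptor and a sialomucin of the endothelial surface), and Mfsd2a, Slc2a1, Abcb1a and Slco1a4 (carriers in the endothelial membrane). All 10 were among the 14147 genes tested, that is, those with a log2 CPM (reads scaled to the size of each library) above 0 in at least 3 of the 12 libraries. YSGr tumours, called rescued by the submitters, carried fYap1;fSMO-M2;hGFAPcre (3 male and 3 female libraries), and SG tumours carried fSMO-M2;hGFAPcre without the floxed Yap1 allele (3 male and 3 female libraries). Both genotypes thus share the activated SMO-M2 allele of Smoothened and a Cre recombinase under the human GFAP promoter, which is active in neural progenitors and astrocytes and is not an endothelial promoter. Animal ages were not given in the sources used here, and no label says whether libraries of 1 group came from separate animals, so each p measures only the spread between these libraries.

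Endothelial cells of most brain vessels seal the paracellular route with tight junctions, in which claudin-5 is the main claudin, and anchor each other through VE-cadherin, the product of Cdh5. They also keep transcytosis low and move selected molecules across the cell: the glucose carrier Glut1 (Slc2a1) and the lipid carrier Mfsd2a bring substrates in, and the efflux pump P-glycoprotein (Abcb1a) sends drugs back to blood. Wnt ligands from neural cells maintain this barrier state in endothelial cells through beta-catenin, and vessels of many brain tumours lose part of it.

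In YSGr tumours, 5 of the 10 genes had fallen relative to SG tumours and none had risen, averaged over the sexes: Mfsd2a, Cldn5, Esam, Tie1 and Cdh5, where 5.27% of all 14147 genes fell and 6.16% rose (limma, Benjamini-Hochberg adjusted p below 0.05). The 10 were chosen with earlier results of these data known, so these shares are a background and not a test. The falls were 2.52-fold for Mfsd2a, 2.16-fold for Cldn5, 1.84-fold for Esam, 1.64-fold for Tie1 and 1.56-fold for Cdh5. The other carriers, Slc2a1, Abcb1a and Slco1a4, had log2 fold changes between 0.02 and 0.21, and none of the 3 passed the test. The count was 3 without any of SG male 3, SG females 4, 5 and 6, YSGr males 7 and 9 and YSGr females 10 and 11, each of which ended the calls of Tie1 and Cdh5. The median log2 fold change over the 10 genes was -0.55, beside -0.005 over all genes tested. By sex the median over the 10 was -0.70 in females and -0.27 in males. In bulk tumour RNA, fewer endothelial cells and less RNA of a gene per endothelial cell cannot be told apart.

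Of the 12 libraries, 2 stood farthest from the rest. SG male 2 was separate on principal component 3 (12.3% of variance) and YSGr male 8 on component 1 (38.3%), and values without both are given where they end a call or move a value. The YSGr females were also spread: female 12 lay at -23.5 on component 1, within the SG range of -44.5 to -12.3, females 10 and 12 lay lowest on component 2 (18.0% of variance), at -42.5 and -45.5, and female 11 had a library weight of 0.27, close to the 0.28 of YSGr male 8. For calls of the 10 genes, and of the listed genes named below in the averaged comparison, libraries whose omission ended a call are therefore given. Library depth, estimated from the steps between low values, was even, at 8854765 to 9478650 reads. Yap1, the gene flanked by loxP sites, had 33, 29 and 14 estimated reads in YSGr males and 9, 12 and 7 in YSGr females, against 174 to 253 in the SG libraries. The granule neuron progenitor markers summed to 3756 to 6230 CPM in YSGr libraries and 5066 to 6235 CPM in SG libraries, lowest in YSGr male 8. RNA of this lineage was thus present in every library, but the sum does not measure the share of tumour cells.

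The promoters of 5 of the genes are shown because they set 3 that fell (Cldn5, Mfsd2a and Tie1) beside a pair of carriers that did not pass the test (Slco1a4 and Slc2a1). Each is the RefSeq window of GRCm38.p6 (mm10) that runs 250 bases before to 50 bases after the gene start in RefSeq, 5′ to 3′ on the gene's strand. The gene spans given with the values are from GENCODE M21, whose start can differ: most of the Tie1 window lies inside its GENCODE span. A window was listed for 7 of the 10 genes. Capitals mark matches on either strand to any of 5 motifs: AGGAAG (a form of the site bound by endothelial ETS factors), ACAAAG (a core shared by SOX and TCF/LEF factors), GGAATG (the site of TEAD factors, the DNA-binding partners of YAP), ACGTG (a form of the hypoxia-inducible factor core) and GGGCGG (SP and KLF factors). The names below stand for these exact letters, and other forms of the sites were not searched. No 2 matches overlapped in the windows shown.
Cldn5, chr16:18776597-18776896, plus strand: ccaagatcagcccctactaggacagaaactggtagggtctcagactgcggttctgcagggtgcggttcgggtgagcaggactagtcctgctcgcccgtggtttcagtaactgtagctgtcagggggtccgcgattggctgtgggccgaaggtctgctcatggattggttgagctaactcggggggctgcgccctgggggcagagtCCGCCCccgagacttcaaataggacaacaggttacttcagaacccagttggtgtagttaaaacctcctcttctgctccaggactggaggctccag
Mfsd2a, chr4:122961139-122961438, minus strand: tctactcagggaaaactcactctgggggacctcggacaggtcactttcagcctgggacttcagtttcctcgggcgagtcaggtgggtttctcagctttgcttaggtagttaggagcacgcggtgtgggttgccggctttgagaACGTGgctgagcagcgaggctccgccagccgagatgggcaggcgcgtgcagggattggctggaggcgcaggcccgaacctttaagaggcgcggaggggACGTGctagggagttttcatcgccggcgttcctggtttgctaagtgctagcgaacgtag
Tie1, chr4:118489800-118490099, minus strand: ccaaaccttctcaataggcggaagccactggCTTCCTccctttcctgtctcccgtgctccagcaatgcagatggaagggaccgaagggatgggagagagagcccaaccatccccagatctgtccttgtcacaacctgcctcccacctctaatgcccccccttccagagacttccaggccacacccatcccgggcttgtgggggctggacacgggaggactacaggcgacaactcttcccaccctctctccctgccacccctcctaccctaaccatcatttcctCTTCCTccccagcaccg
Slco1a4, chr6:141856171-141856470, minus strand: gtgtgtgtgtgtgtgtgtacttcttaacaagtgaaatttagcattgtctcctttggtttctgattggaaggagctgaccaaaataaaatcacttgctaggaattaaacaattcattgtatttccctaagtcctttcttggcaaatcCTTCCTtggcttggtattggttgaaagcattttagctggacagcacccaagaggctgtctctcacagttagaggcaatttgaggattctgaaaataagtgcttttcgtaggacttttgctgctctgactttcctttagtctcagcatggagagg
Slc2a1, chr4:119108495-119108794, plus strand: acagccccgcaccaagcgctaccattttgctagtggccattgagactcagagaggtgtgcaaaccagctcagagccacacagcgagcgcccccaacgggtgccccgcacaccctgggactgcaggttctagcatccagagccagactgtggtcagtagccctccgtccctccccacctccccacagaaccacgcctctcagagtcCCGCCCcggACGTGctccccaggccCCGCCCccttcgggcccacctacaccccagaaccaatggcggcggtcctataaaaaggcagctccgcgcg
The Cldn5 window held 1 match, to the SP and KLF motif, on the opposite strand. Mfsd2a held 2 copies of the hypoxia-inducible factor core, Tie1 held 2 ETS matches, Slco1a4 held 1 ETS match, and Slc2a1 held 1 hypoxia-inducible factor core between 2 SP and KLF matches. Over the 7 windows, the ETS motif was in 4 (Emcn, Tie1, Abcb1a and Slco1a4), against 35.4% of all 32851 windows in the table, and the TEAD motif was in 2 (Emcn and Abcb1a), against 14.7%. The SOX and TCF/LEF core was in 1 window (Abcb1a; 18.7% of all windows), the hypoxia-inducible factor core in 2 (19.6%) and the SP and KLF motif in 2 (35.7%). The windows of Cldn5, Mfsd2a and Tie1 held no TEAD match, which says only that these letters are not in these bases. Esam and Cdh5, which also fell, had no window. A match is a run of letters, not a bound site.

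**Figure D1:**
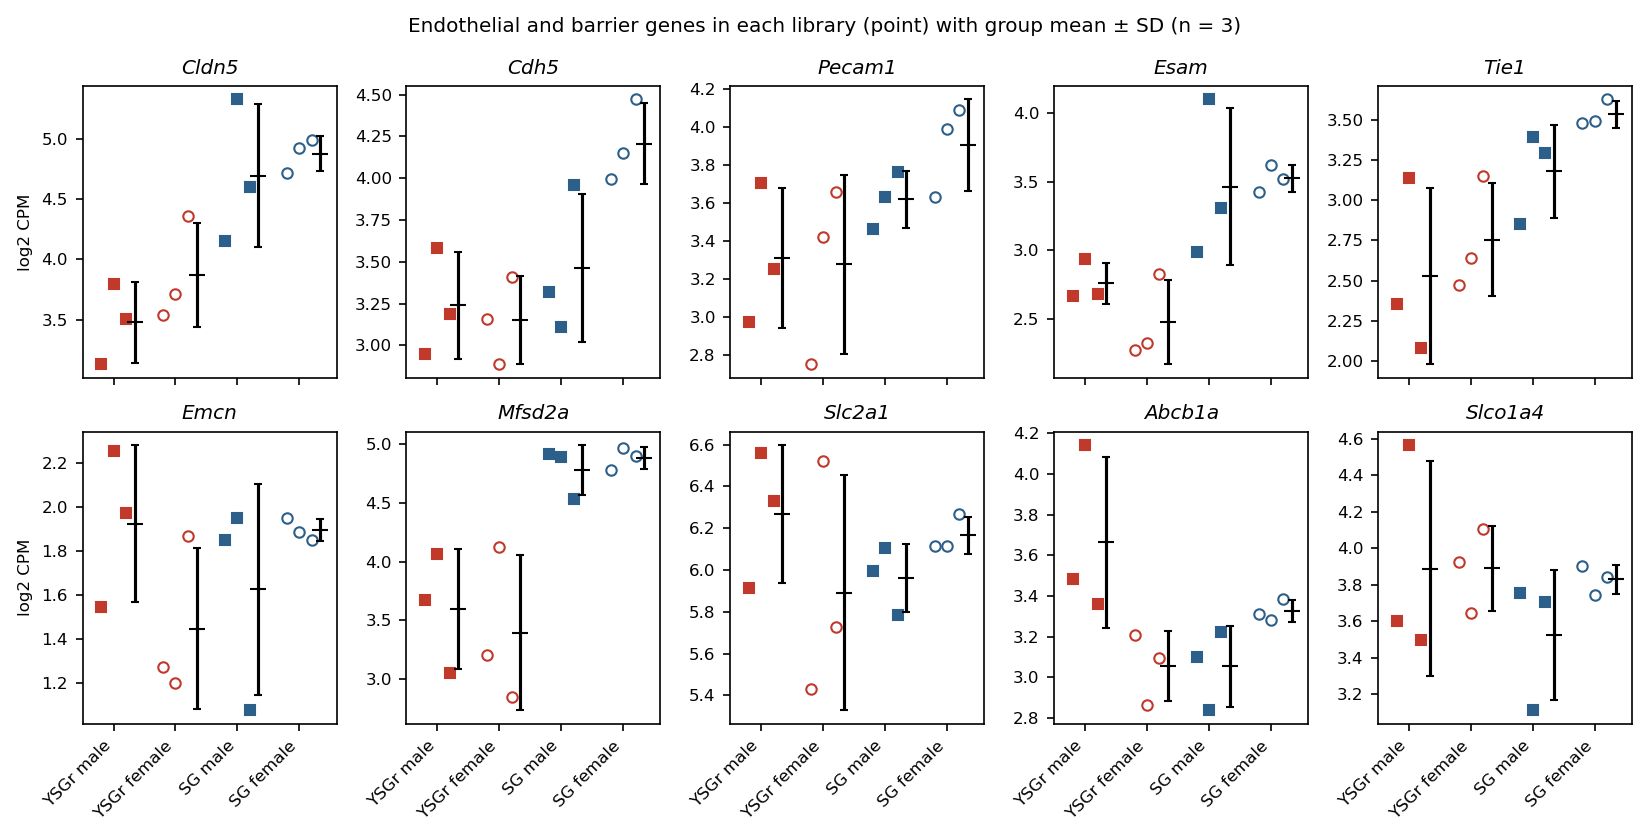
Log2 CPM of the 10 genes in every library, 1 panel a gene, with YSGr males and females left of SG males and females; each point is a library and the black marks are group means ± SD (n = 3 each). All 6 YSGr libraries lie below all 6 SG libraries for Mfsd2a and Esam, while the genotypes overlap for every other gene, Cldn5, Cdh5 and Tie1 among them.

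Among the junction genes, Cldn5 changed most. Cldn5, the claudin that seals brain endothelial tight junctions (chromosome 16, 18776847 to 18778262, plus strand, mm10), had 3.13, 3.80 and 3.51 log2 CPM in YSGr males and 3.54, 3.71 and 4.36 in YSGr females, against 4.15, 5.33 and 4.60 in SG males and 4.72, 4.93 and 4.99 in SG females. Of the 6 YSGr libraries, 5 were below every SG library, and only YSGr female 12, at 4.36, exceeded the lowest SG library, male 1. The log2 fold change was -1.11 (SE 0.21, 95% interval -1.56 to -0.66, limma adjusted p = 0.0048). That call held without any single library and with every other setting tried, with an adjusted p of at most 0.018 when a library was left out.

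Esam, an adhesion molecule of endothelial tight junctions (chromosome 9, 37528078 to 37538319, plus strand), had 2.66, 2.93 and 2.68 log2 CPM in YSGr males and 2.27, 2.32 and 2.83 in YSGr females, against 2.99, 4.10 and 3.31 in SG males and 3.43, 3.62 and 3.52 in SG females. The genotypes did not overlap, although the gap between YSGr male 8 and SG male 1 was narrow. Among all genes, 2.96% had every YSGr library below every SG library, and of these 10 genes Mfsd2a and Esam did. Esam fell by 0.88 on the log2 scale (SE 0.19, limma adjusted p = 0.011), and by 0.76 without SG male 2 and YSGr male 8 (adjusted p = 0.0090).

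Cdh5, which encodes the adherens junction protein VE-cadherin (chromosome 8, 104101625 to 104144511, plus strand), had 2.95, 3.58 and 3.19 log2 CPM in YSGr males and 3.16, 2.89 and 3.41 in YSGr females, against 3.32, 3.11 and 3.96 in SG males and 3.99, 4.15 and 4.47 in SG females. The females were clearly apart, and the males overlapped. Averaged over the sexes, the log2 fold change was -0.64 (SE 0.18, limma adjusted p = 0.039). The call was near the threshold: it was lost without any of 9 libraries in turn, SG males 1 and 3, SG females 4, 5 and 6, YSGr males 7 and 9 and YSGr females 10 and 11, with adjusted p up to 0.115, and log2 fold changes over all 12 omissions of -0.73 to -0.51.

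Pecam1, the adhesion molecule CD31, found on endothelium, platelets and leukocytes (chromosome 11, 106654217 to 106750628, minus strand), had 2.97, 3.71 and 3.25 log2 CPM in YSGr males and 2.75, 3.42 and 3.66 in YSGr females, against 3.46, 3.63 and 3.76 in SG males and 3.63, 3.99 and 4.09 in SG females. YSGr male 8 and YSGr female 12 lay within the SG range, and the other 4 YSGr libraries lay below it. Its log2 fold change was -0.47 (SE 0.18, 95% interval -0.87 to -0.07), which did not pass the test across genes (limma adjusted p = 0.12).

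The endothelial surface genes differed from each other. Tie1, an orphan receptor tyrosine kinase that works with the angiopoietin receptor Tek (chromosome 4, 118471191 to 118490061, minus strand), had 2.36, 3.14 and 2.09 log2 CPM in YSGr males and 2.48, 2.64 and 3.15 in YSGr females, against 2.85, 3.40 and 3.29 in SG males and 3.48, 3.49 and 3.63 in SG females. Only SG male 1 was below the highest YSGr libraries, male 8 and female 12. Tie1 fell with a log2 fold change of -0.71 (SE 0.20, limma adjusted p = 0.036). The call was lost without any of SG males 2 and 3, SG females 4, 5 and 6, YSGr males 7 and 9 and YSGr females 10 and 11 (adjusted p up to 0.094, log2 fold changes over all 12 omissions -0.87 to -0.60), and held without SG male 1, YSGr male 8 or YSGr female 12.

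Emcn, an endothelial sialomucin of veins and capillaries (chromosome 3, 137341067 to 137432185, plus strand), was the least abundant of the 10. It had 1.55, 2.25 and 1.98 log2 CPM in YSGr males and 1.27, 1.20 and 1.87 in YSGr females, against 1.85, 1.95 and 1.07 in SG males and 1.95, 1.89 and 1.85 in SG females. The groups overlapped over most of their range. The log2 fold change was -0.08 (SE 0.22, 95% interval -0.55 to 0.40, limma adjusted p = 0.85), at 20 to 43 estimated reads in YSGr libraries and 18 to 36 in SG libraries.

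Of the carriers, Mfsd2a fell by the most. Mfsd2a, which carries docosahexaenoic acid as lysophosphatidylcholine into the brain and keeps endothelial transcytosis low (chromosome 4, 122946850 to 122961188, minus strand), had 3.67, 4.07 and 3.05 log2 CPM in YSGr males and 3.21, 4.13 and 2.85 in YSGr females, against 4.91, 4.89 and 4.53 in SG males and 4.78, 4.96 and 4.90 in SG females. The genotypes did not overlap, and the YSGr libraries spread more widely (SD 0.54, n = 6) than the SG libraries (SD 0.16, n = 6). Its log2 fold change was -1.33 (SE 0.22, 95% interval -1.81 to -0.86, limma adjusted p = 0.0022), and adjusted p stayed at or below 0.0088 with any library left out.

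Slc2a1, the Glut1 glucose carrier of barrier endothelium and of many tumour cells (chromosome 4, 119108711 to 119137983, plus strand), had 5.91, 6.56 and 6.33 log2 CPM in YSGr males and 5.43, 6.52 and 5.73 in YSGr females, against 6.00, 6.11 and 5.78 in SG males and 6.12, 6.11 and 6.27 in SG females. YSGr values lay on both sides of the SG values, with a wider spread (SD 0.46 in YSGr and 0.16 in SG, n = 6 each). Its log2 fold change was 0.02 (SE 0.17, 95% interval -0.35 to 0.39, limma adjusted p = 0.96).

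Abcb1a, the barrier's P-glycoprotein pump (chromosome 5, 8660077 to 8748575, plus strand), had 3.49, 4.14 and 3.36 log2 CPM in YSGr males and 3.21, 2.87 and 3.09 in YSGr females, against 3.10, 2.84 and 3.22 in SG males and 3.31, 3.28 and 3.39 in SG females. YSGr males were above SG males and YSGr females below SG females. The averaged log2 fold change was 0.17 (SE 0.16, 95% interval -0.17 to 0.51, limma adjusted p = 0.50).

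Slco1a4, an organic anion carrier of mouse brain endothelium (chromosome 6, 141805440 to 141856199, minus strand), had 3.60, 4.56 and 3.49 log2 CPM in YSGr males and 3.92, 3.64 and 4.10 in YSGr females, against 3.75, 3.11 and 3.71 in SG males and 3.90, 3.75 and 3.84 in SG females. The highest value was in YSGr male 8 and the lowest in SG male 2, the libraries that stood apart. The log2 fold change was 0.21 (SE 0.19, 95% interval -0.21 to 0.63, limma adjusted p = 0.49), and -0.06 without those 2 libraries (adjusted p = 0.77).

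Both of these carriers have a close paralogue, so reads could be split between like copies. Estimated reads of Slco1a4 were whole numbers in each library except YSGr female 10 (142.4). Those of Abcb1a were not whole in most libraries, such as 81.29 in SG male 1, so its values are the less certain. Abcb1b, the second mouse P-glycoprotein gene, had 26 to 44 estimated reads in YSGr libraries and 22 to 48 in SG libraries, with a log2 fold change of -0.02 (SE 0.23, limma adjusted p = 0.96). Slco1a5, a neighbour of Slco1a4 on chromosome 6, had 13 to 45 estimated reads in YSGr libraries and 3 to 9 in SG libraries, and rose by 2.04 on the log2 scale (SE 0.32, limma adjusted p = 0.0016). The 2 paralogues were chosen for their sequence likeness, not for their values.

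**Figure D2:**
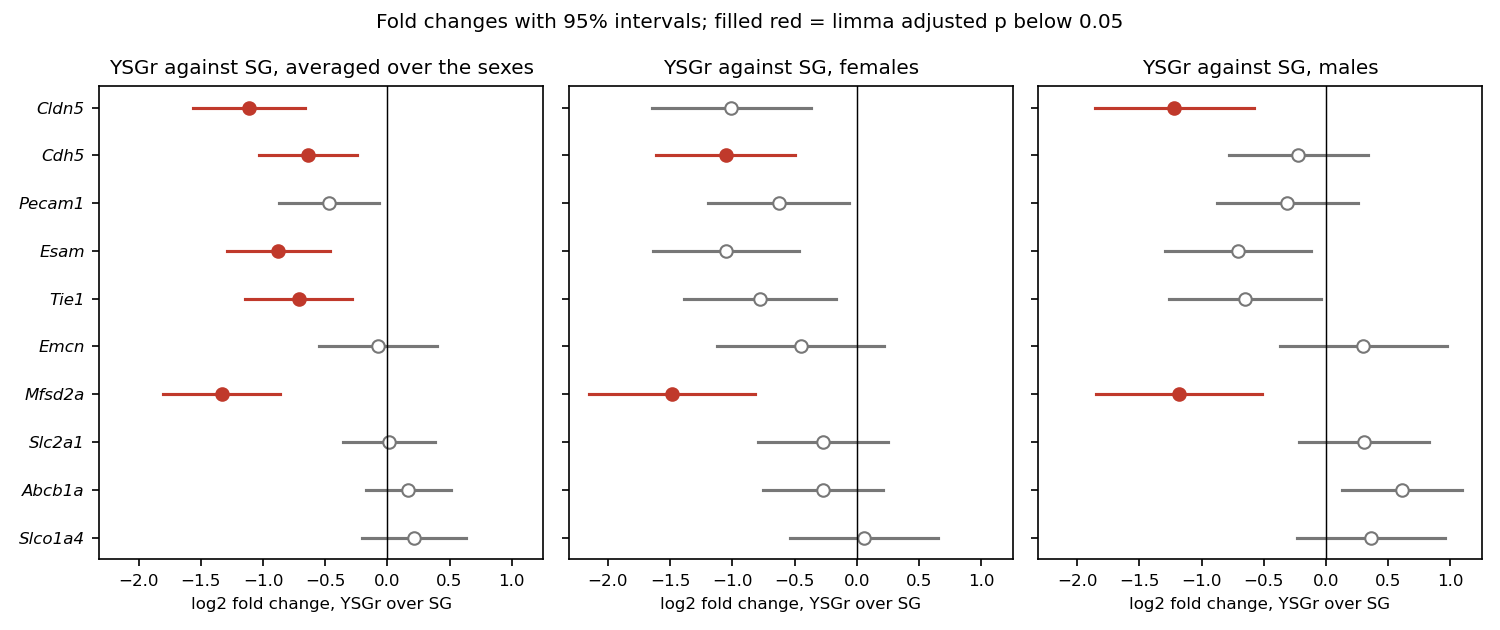
Log2 fold change of YSGr over SG for the 10 genes, in the averaged comparison, then females alone and males alone; points are limma estimates, lines are 95% intervals and filled points passed an adjusted p of 0.05. Mfsd2a and Cldn5 lie lowest in the averaged comparison, at -1.33 and -1.11, and Slc2a1, Abcb1a and Slco1a4 lie around 0.

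Levels per length set the genes in order. In CPM per kilobase of exon, the YSGr means were 20.1 for Slc2a1, 9.18 for Cldn5, 5.22 for Mfsd2a, 2.36 for Slco1a4, 2.16 for Cdh5, 2.09 for Esam, 1.91 for Abcb1a, 1.58 for Pecam1, 1.27 for Tie1 and 0.577 for Emcn. The SG means on the same scale were 20.0 for Cldn5, 19.1 for Slc2a1, 12.6 for Mfsd2a, 3.97 for Esam, 3.52 for Cdh5, 2.17 for Pecam1, 2.07 for Tie1, 1.99 for Slco1a4, 1.64 for Abcb1a and 0.600 for Emcn. Cldn5 and Slc2a1 thus stood level in SG tumours, where Cldn5 spanned 12.4 to 28.3 and Slc2a1 15.7 to 21.9 CPM per kilobase over libraries. In YSGr tumours the ranges of these genes barely met, at 6.02 to 14.3 for Cldn5 and 12.2 to 26.9 for Slc2a1. From Slco1a4 down to Pecam1, neighbours in the YSGr order overlapped in their ranges, as did neighbours in the SG order from Esam down to Abcb1a, and Emcn was lowest in both genotypes.

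By sex, each comparison rested on 3 libraries against 3. In females, Mfsd2a fell by 1.49 (limma adjusted p = 0.022) and Cdh5 by 1.05 (adjusted p = 0.046) on the log2 scale, so 2 of the 10 genes fell, where 1.87% of all genes fell and 1.15% rose, and none of the 10 rose. Esam, at -1.05 (adjusted p = 0.058), and Cldn5, at -1.01 (adjusted p = 0.094), were of like size and did not pass. In 6 of the 10 genes every YSGr female was below every SG female (Cldn5, Cdh5, Abcb1a, Mfsd2a, Esam and Tie1), against 13.9% of all genes. Over the omission of single libraries the count of genes that fell in females ran between 0 and 4: it was 0 without SG female 4, 5 or 6 or YSGr female 10 or 12, 1 without YSGr male 9 or YSGr female 11, and 4 without SG male 2. It was 5 without both SG male 2 and YSGr male 8, in which Cldn5, Cdh5, Mfsd2a, Esam and Tie1 passed. The Cdh5 call in females was lost without SG male 1, any SG female, YSGr male 9 or any YSGr female. Without SG male 1, Esam passed. The Mfsd2a call in females was lost without any SG female, YSGr female 10 or YSGr female 12. Adjusted p reached 0.225 for Cdh5 and 0.104 for Mfsd2a (limma).

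In males, Cldn5 fell by 1.22 (limma adjusted p = 0.031) and Mfsd2a by 1.18 (adjusted p = 0.039), so 2 of the 10 genes fell, where 3.42% of all genes fell and 4.43% rose, and none of the 10 rose. Cldn5, Mfsd2a and Esam had every YSGr male below every SG male, against 18.0% of all genes, and Abcb1a had every YSGr male above every SG male, against 16.3%. Abcb1a was higher by 0.61 in YSGr males and did not pass (limma adjusted p = 0.096); without SG male 2 and YSGr male 8 its log2 fold change was 0.26. The count of genes that fell in males was 0 without SG male 2 or 3, SG female 5 or 6 or YSGr male 7 or 9, and 1 without SG male 1, SG female 4, YSGr male 8 or YSGr female 10. It was 0 without both SG male 2 and YSGr male 8, when Cldn5 was at -1.06 (adjusted p = 0.086) and Mfsd2a at -1.36 (adjusted p = 0.093) with 2 males a genotype. The Cldn5 call in males was lost without SG male 2 or 3, SG female 5 or 6 or any YSGr male. The Mfsd2a call in males was lost without any SG library, YSGr male 7 or 9 or YSGr female 10. Adjusted p reached 0.089 for Cldn5 and 0.106 for Mfsd2a (limma).

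The difference between the sexes in the YSGr effect was tested directly, and it passed for none of the 10 genes and for 0.00707% of all genes, 1 of 14147 (limma). At an unadjusted p below 0.05 the count was 2 of 10 and 1634 of 14147. Those 2 were Abcb1a, with a female effect minus male effect of -0.88 (SE 0.32, limma adjusted p = 0.43), and Cdh5, at -0.83 (SE 0.36, adjusted p = 0.43). For Cldn5 and Mfsd2a the differences were 0.21 (95% interval -0.69 to 1.11) and -0.30 (95% interval -1.25 to 0.64), intervals that reach differences about as large as the averaged changes. Within a genotype, no sex difference passed for the 10 genes: none passed between YSGr females and YSGr males (0.0778% of all genes passed) or between SG females and SG males (0.0353%), and 1 of the 10 in each had an unadjusted p below 0.05 (of 14147 genes, 2566 in YSGr and 259 in SG). These were Abcb1a in YSGr, lower in females by a log2 difference of -0.61 (limma adjusted p = 0.20), and Cdh5 in SG, higher in females by 0.74 (adjusted p = 0.98).

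Deviations from the group means showed which of the genes moved together from library to library. Over the 12 libraries, which share preparation and depth, 35 of the 45 pairs had a Pearson r above 0, with a median of 0.27, given here as a description. Cldn5 and Esam went together most closely, at r = 0.95, and at 0.92 without SG male 2 and YSGr male 8. Slco1a4 and Abcb1a were next, at 0.94 and at 0.88 without those libraries, and the lowest pair was Cdh5 with Mfsd2a, at -0.29. Against the mean of the other 9 genes, Tie1 (0.88) and Pecam1 (0.80) followed most closely and Mfsd2a least (0.11). Mfsd2a, the gene that fell most, was between -0.29 and 0.18 with each of the others except Slc2a1, with which it had r = 0.66.

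**Figure D3:**
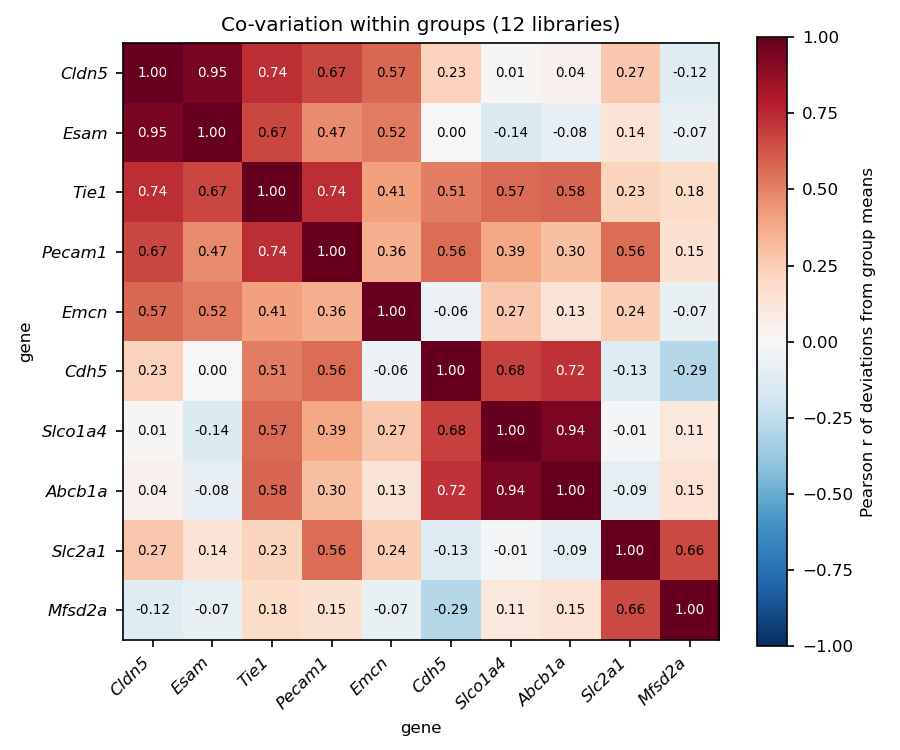
Pearson r between the deviations of each pair of the 10 genes from their group means over 12 libraries, drawn as a coloured grid. The Cldn5 and Esam cell (0.95) and the Slco1a4 and Abcb1a cell (0.94) are the highest, and the Mfsd2a row is pale except for Slc2a1 (0.66).

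Among the other genes with a mean log2 CPM above 1, the 8 whose deviations were most like the mean of the 10, out of 12845, were Crabp1 (r = 0.96), Mak16 (0.95), Egfl7 (0.94), Rbms3 (0.92), Pcmt1 (0.92), Rgcc (0.92), Cacna1h (0.91) and Nkd2 (0.90), over 12 libraries. Egfl7, an endothelial secreted protein, is the only 1 of the 8 in the endothelial lists used here. The 8 did not share a direction between genotypes: Mak16 rose by 0.62 (limma adjusted p = 0.0039), Crabp1 fell by 1.64 (adjusted p = 0.018), and the rest did not pass. YSGr male 8, which was highest among the YSGr libraries for 7 of the 10 genes, weighs in these values: without it and SG male 2, r was 0.90 for Crabp1, 0.85 for Egfl7 and 0.82 for Nkd2.

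The wider endothelial list held 28 identity genes, all tested. In YSGr tumours 5 of the 28 fell and 2 rose, with a median log2 fold change of -0.41. By sex that median was -0.76 in females and -0.04 in males, and the test of the sex difference passed for none of the 28 (limma). Over all 14147 genes 5.27% fell and 6.16% rose, so the 2 rises were near that share. The same shares stand beside the counts of every list below, and in the short lists a count of 1 is not far from them. Kdr, the main VEGF receptor of endothelium, had 1.33 to 3.02 log2 CPM in YSGr libraries (median 2.39) and 3.07 to 4.49 in SG libraries (median 3.77), and fell by 1.55 (SE 0.22, limma adjusted p = 8.3e-04). Sox18, a transcription factor of endothelium, had 6.95 to 8.03 log2 CPM in YSGr libraries and 8.41 to 8.72 in SG libraries, and fell by 0.93 (SE 0.14, adjusted p = 0.0015). Both were without overlap. Sox18 had 3210 to 3803 estimated reads in SG libraries, where its relatives Sox7 and Sox17 had 17 to 31 and 13 to 32. Bulk RNA does not show which cells gave the Sox18 reads. Eng, Palmd and Cd34, named after their values were seen, were the other 3 that fell, and the Cd34 call was lost without any of SG male 3, SG females 5 and 6 and YSGr female 10 (adjusted p up to 0.067). The 2 that rose were Ly6a, a surface protein of endothelium and of haematopoietic cells, by 1.45 (SE 0.26, adjusted p = 0.0039), and Vwf, the clotting factor made by endothelium and platelets, by 0.58 (SE 0.14, adjusted p = 0.019); the Vwf call was lost without SG female 6 (adjusted p = 0.058). By sex, Vwf was at -0.09 in females (adjusted p = 0.91) and rose by 1.24 in males (adjusted p = 0.0061), and the test of that difference did not pass (adjusted p = 0.43).

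The list's summed level was 404 to 523 CPM in YSGr libraries and 645 to 761 CPM in SG libraries. Sox18 alone made up 27.6% to 53.0% of the sum in YSGr libraries and 49.5% to 57.6% in SG libraries. Without Sox18 the sum was 193 to 325 CPM in YSGr libraries and 306 to 384 CPM in SG libraries, and the genotypes overlapped.

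**Figure D4:**
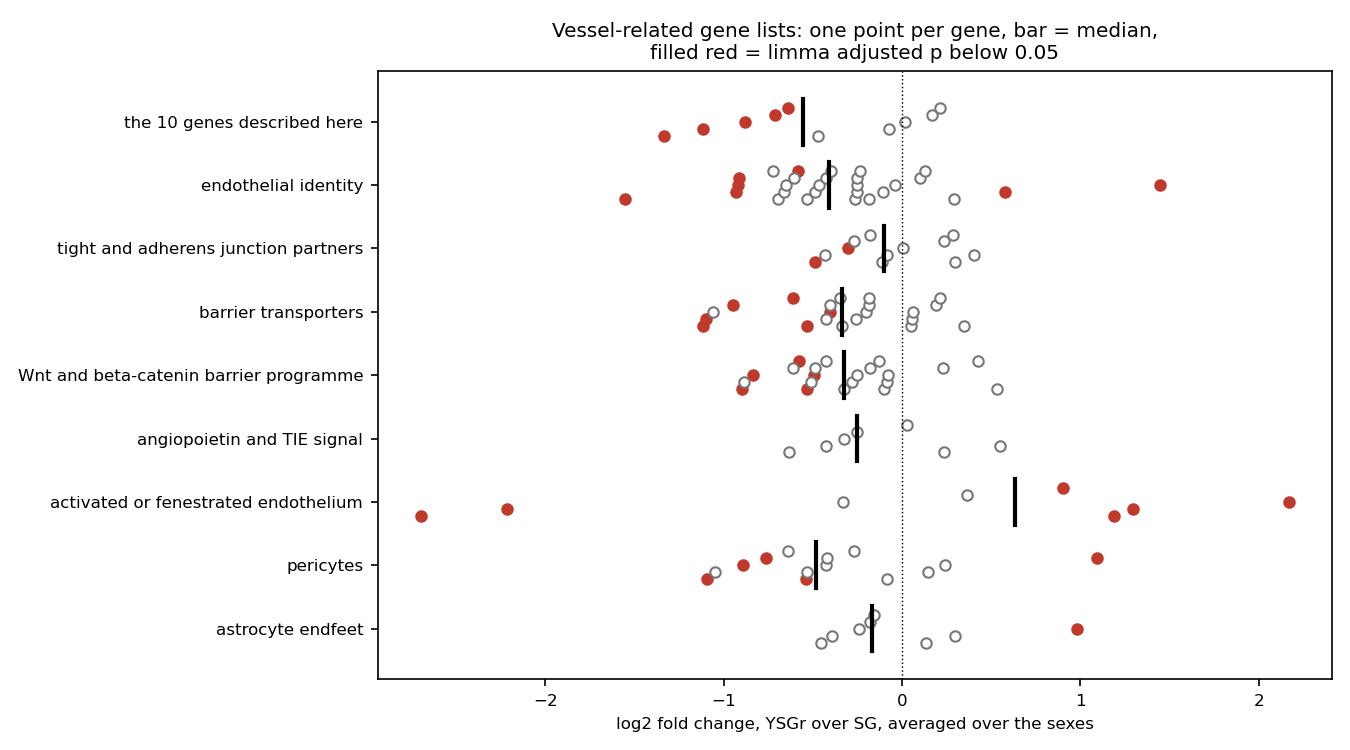
Log2 fold change of YSGr over SG, averaged over the sexes, for every tested gene of the vessel lists, 1 row a list; each point is a gene, filled where it passed an adjusted p of 0.05, and the bar is the list's median. The medians lie at -0.55 for the 10 genes, -0.34 for other barrier carriers and 0.63 for the activated or fenestrated genes.

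The junction genes' partners were mostly within the spread. Over 12 tight and adherens junction partners, none rose and the median was -0.10. Jam3, a junctional adhesion molecule, had 4.60 to 5.52 log2 CPM in YSGr libraries and 5.42 to 5.88 in SG libraries, and fell by 0.49 (SE 0.13, limma adjusted p = 0.032). That call was lost without any of SG females 4, 5 and 6, YSGr males 7 and 9 and YSGr females 10 and 11 (adjusted p up to 0.090). Many of these partners are expressed in neural cells as well as vessels.

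Other carriers listed for the barrier fell in part. Of 21, 6 fell and none rose, with a median log2 fold change of -0.34 (-0.41 in females and -0.23 in males). Slc38a3, a glutamine carrier, had 4.72 to 5.99 log2 CPM in YSGr libraries and 6.37 to 6.66 in SG libraries, and fell by 0.94 (SE 0.14, limma adjusted p = 0.0011). Slc7a5, the large neutral amino acid carrier LAT1, had 7.33 to 8.08 log2 CPM in YSGr libraries and 8.05 to 8.57 in SG libraries, and fell by 0.61 (SE 0.10, adjusted p = 0.0016). Slco1c1, Slc22a8, Slc16a1 and Slc3a2, named after their values were seen, also fell. The Slc16a1 call was lost without any of SG male 3, SG females 5 and 6, YSGr males 8 and 9 and YSGr female 10 (adjusted p up to 0.066). The Slc3a2 call was lost without any of SG male 1, SG females 4, 5 and 6, YSGr males 8 and 9 and YSGr females 10 and 11 (adjusted p up to 0.103), and without a filter on low values or without the mean-variance trend (up to 0.067). Among these 4, the thyroid hormone carrier Slco1c1 had 3.49 to 4.56 log2 CPM in YSGr libraries and 4.70 to 5.16 in SG libraries, a fall of 1.12 (SE 0.18, adjusted p = 0.0020), and the organic anion carrier Slc22a8 fell by 1.10 (SE 0.23, adjusted p = 0.0084). Slc7a5 and Slc3a2 encode the chains of 1 carrier and are expressed in many dividing cells. Slc38a3 had 783 to 912 estimated reads in SG libraries, where Cldn5 had 171 to 361. Bulk RNA does not show which cells gave the reads of any of these 6 carriers.

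Genes of the Wnt and beta-catenin programme that maintains the barrier fell in part: 5 of 21 were lower and none higher, with a median of -0.33. By sex the median was -0.62 in females and -0.05 in males. Apcdd1, a Wnt target and inhibitor, had 6.17 to 6.95 log2 CPM in YSGr libraries and 7.07 to 7.64 in SG libraries, and fell by 0.84 (SE 0.12, limma adjusted p = 8.0e-04). Tspan12, a coreceptor for Norrin at Fzd4, had 4.04 to 4.37 log2 CPM in YSGr libraries and 4.71 to 5.05 in SG libraries, and fell by 0.57 (SE 0.11, adjusted p = 0.0044). Lrp5, Tcf7 and Nkd1, named after their values were seen, were the remaining 3. The Tcf7 call was lost without any of SG male 3, SG females 4 and 6 and YSGr female 10 (adjusted p up to 0.076), and the Nkd1 call without any of SG females 4, 5 and 6, YSGr male 7 and YSGr female 10 (up to 0.087) and without both SG male 2 and YSGr male 8 (0.062). The count was 3 without SG female 4, SG female 6 or YSGr female 10. Among the genes that did not pass were Axin2, at 0.23 (SE 0.14, limma adjusted p = 0.29), and Lef1, at -0.28 (SE 0.38, adjusted p = 0.66). Lrp6, at 0.42 (adjusted p = 0.11), and Foxf2, at 0.53 (adjusted p = 0.20), were others, all named after their values were seen. The genes of this list are not confined to vessels, and the sum of the list was 1089 to 1529 CPM in YSGr libraries and 1287 to 1640 CPM in SG libraries.

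In the angiopoietin and TIE signal, to which Tie1 belongs, none of 7 genes passed in the limma test, with a median of -0.25. The ligand Angpt1 had 3.56 to 5.44 log2 CPM in YSGr libraries and 4.17 to 4.80 in SG libraries (log2 fold change 0.03, SE 0.23, adjusted p = 0.95). The transcription factor Foxo1, which this signal restrains, was at -0.32 (SE 0.16, adjusted p = 0.21). Tek, the angiopoietin receptor itself, is in both this list and the identity list and did not pass.

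Genes listed for activated or fenestrated endothelium went in both directions, and bulk RNA does not show which cells gave their reads. Of 11 listed, 8 were tested, with a median of 0.63; 4 rose and 2 fell. Vcam1, a leukocyte adhesion molecule, had 5.11 to 6.16 log2 CPM in YSGr libraries and 3.86 to 4.46 in SG libraries, and rose by 1.19 (SE 0.19, limma adjusted p = 0.0020). Lrg1, a secreted glycoprotein of activated endothelium and of neutrophils, had 2 to 34 estimated reads in YSGr libraries and 0 to 2 in SG libraries, and its fitted log2 difference was 2.17 (SE 0.40, adjusted p = 0.0047). Plvap, the diaphragm protein of fenestrated vessels that barrier endothelium lacks, had 1.78 to 3.52 log2 CPM in YSGr libraries and 1.05 to 1.95 in SG libraries, and rose by 1.29 (SE 0.25, adjusted p = 0.0062); it was named after its values were seen. So was Ackr1, a chemokine-binding protein of venules, which rose by 0.90 (SE 0.24, adjusted p = 0.031), a call lost without any of SG males 1 and 3, SG females 4, 5 and 6, YSGr males 7 and 9 and YSGr females 10 and 11 (adjusted p up to 0.088).

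The 2 genes of that list that fell were Pgf, the placental growth factor, and Aplnr, the apelin receptor of sprouting endothelium. Pgf had 0.19 to 1.44 log2 CPM in YSGr libraries and 3.18 to 4.00 in SG libraries, and fell by 2.69 (SE 0.23, limma adjusted p = 3.0e-05). Aplnr had -0.68 to 2.03 log2 CPM in YSGr libraries and 1.81 to 3.59 in SG libraries, and fell by 2.22 (SE 0.39, adjusted p = 0.0033). Sele, Selp and Esm1 were too low to test.

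Pericytes, which wrap the capillaries and help to hold the barrier, showed falls as well: of 14 markers tested, 4 fell and 1 rose, with a median of -0.48. By sex the median was -0.72 in females and -0.22 in males. Pdgfrb, the receptor that recruits pericytes, had 2.27 to 3.72 log2 CPM in YSGr libraries and 3.55 to 4.54 in SG libraries, and fell by 1.09 (SE 0.18, limma adjusted p = 0.0025). Cspg4, which is also a marker of oligodendrocyte progenitors, fell by 0.54 (SE 0.11, adjusted p = 0.0063), and Vtn and Notch3, named after their values were seen, were the other 2. The count of falls was 2 without SG female 5 or 6, which ended the Vtn and Notch3 calls (adjusted p up to 0.075), and Notch3 was also lost without SG male 1 or YSGr female 10. Ifitm1 rose by 1.09 (SE 0.22, adjusted p = 0.0069). Of astrocyte endfoot genes, 1 of 8 rose, Gfap by 0.98 (SE 0.22, adjusted p = 0.014), and none fell, while the glutamate carrier Slc1a2 was at 0.30 (SE 0.18, adjusted p = 0.28). The endfoot list's median was -0.17, and its sum overlapped between YSGr libraries (1223 to 2832 CPM) and SG libraries (1259 to 2475 CPM).

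Markers of blood and of other cells moved in part with the genotype, and their part in the falls was not tested. Of 9 leukocyte markers tested, 5 rose and none fell, among them Lyz2 by 1.79 (SE 0.17, limma adjusted p = 6.0e-05) and S100a9, a neutrophil gene at 3 to 74 estimated reads in YSGr libraries and 0 to 1 in SG libraries. The list's median was 0.84, and it summed to 426 to 759 CPM in YSGr libraries and 252 to 328 CPM in SG libraries without overlap. Leukocytes also express Pecam1 and Lrg1. Of 4 platelet genes tested, Gp1bb fell, at 0 to 9 estimated reads in YSGr libraries and 10 to 41 in SG libraries (fitted log2 difference -1.94, SE 0.47, adjusted p = 0.019, 0.057 without SG female 5 and 0.068 without both SG male 2 and YSGr male 8), and the list summed to 2.56 to 6.79 CPM in YSGr libraries and 4.18 to 8.36 CPM in SG libraries. Itgb3, an integrin chain of platelets, was at -0.32 (SE 0.30, adjusted p = 0.51), and the list's median was -0.30. Of 5 erythroid genes none passed in limma, with a median of -1.0, Hbb-bs at -1.0 (SE 0.46, adjusted p = 0.17) and sums of 47.9 to 280 CPM in YSGr libraries and 75.2 to 431 CPM in SG libraries.

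Choroid plexus vessels are fenestrated, so its epithelial markers were read beside Plvap. Of 8, Clic6 fell by 1.36 (SE 0.21, limma adjusted p = 0.0015) and none rose, with a median of 0.14, and the sums overlapped at 98.1 to 905 CPM in YSGr libraries and 179 to 389 CPM in SG libraries. Of 16 hypoxia and glycolysis genes, read beside Slc2a1, 3 rose and none fell, with a median of 0.23: Bnip3 by 0.63 (SE 0.11, adjusted p = 0.0034), Slc2a3, the neuronal glucose carrier Glut3, by 0.56 (SE 0.13, adjusted p = 0.015), and Pdk1, named after its values were seen, by 0.82 (SE 0.19, adjusted p = 0.017). Of 12 granule neuron progenitor genes, 5 fell and none rose, with a median of -0.50, among them Gli1 by 0.82 (SE 0.13, adjusted p = 0.0018) and Ccnd1 by 0.60 (SE 0.10, adjusted p = 0.0032).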

How the data were processed

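Total RNA of mouse medulloblastoma (labelled MB) came from phenol-based extraction, and BGI made and read the libraries (BGISEQ-500 machine), per the labels' protocols. The values are log2 CPM as deposited by the authors for 12 libraries, and the submitters' processing notes name Trimmomatic 0.33, RSEM 1.2.12, Bowtie2, Picard 1.95, edgeR 3.30.3 and build mm10. Strand setting and annotation were not given in the sources used here, so antisense or overlapping reads cannot be separated. Libraries were grouped by genotype and sex as labelled, 3 a group.

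Gene tests used limma 3.58.1 in R 4.3.3 on the deposited log2 values, with 1 coefficient per genotype and sex, a mean-variance trend and Benjamini-Hochberg adjustment over the 14147 genes above 0 in at least 3 libraries. A fold change on this scale understates the change of low genes, since a prior count is built into the deposited values. Steps between low values, taken with a prior count of 2, came out as whole reads within 0.02 for 92.6% to 94.3% of values under 500 reads, and gave the depth (8854765 to 9478650 reads a library). No pair of libraries was identical. The limma step was also tested on simulated data with known changes. Exon lengths came from GENCODE M21, and promoters from RefSeq.

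The 10 genes and all gene lists were chosen with earlier results of these data known. From each list the text names the 2 genes with the lowest adjusted p in each direction and, where fewer than 2 passed, the most abundant. 1 result among the junction partners is not reported here. Alternatives were other filters and scalings, a pseudocount of 1 CPM, no trend, library weights, voom on estimated reads, genotype alone and omission of each library. Omission of both SG male 2 and YSGr male 8 was chosen after the data were seen.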

Additional observations from a re-analysis of the deposited data

Results flagged for a closer look

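For each of the 10 genes, the 6 libraries of each genotype were checked for 1 library set far from the others, 20 groups in all, and 2 stood out, where chance gives about 1 in 20 groups. Slco1a4 was at 3.11 log2 CPM in SG male 2, below the other 5 SG libraries, which lay between 3.71 and 3.90. Emcn was at 1.07 log2 CPM in SG male 3, below the other 5 SG libraries, which lay between 1.85 and 1.95. SG male 2 is also the library that stands apart over all genes, and SG male 3 is not.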

How the results depend on the processing

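No paired analysis was possible because the labels number the libraries 1 to 12 without repeats between groups. Averaged over the sexes, the calls of Cldn5, Mfsd2a and Esam held in every setting run. Cdh5 and Tie1 missed the threshold without a filter on low values (adjusted p 0.054 and 0.052), which left 3 of the 10 genes lower, Cdh5 also missed it with genotype alone (0.084), and library weights called Pecam1 lower too (0.0017). No called value changed sign. With single libraries left out, the count of the 10 that fell ran from 3 to 5 and that of all genes called from 900 to 2088, against 1617.

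By sex the counts were less stable. In females, 94 to 785 genes were called with a library left out, against 426, and 0 to 4 of the 10 fell. Of the 10, 1 fell without a filter, with quantile normalization or without the trend, 7 fell with library weights, and 5 fell without SG male 2 and YSGr male 8 (1268 genes called). In males, 286 to 1662 genes were called with a library left out, against 1111, and 0 to 2 of the 10 fell. Of the 10, 0 fell without a filter, 1 without the trend and 0 without both libraries (245 genes called). The sex difference in the effect was called for 1 to 119 genes with a library left out, and females against males within YSGr for 9 to 1026 genes (19 without both libraries) and 0 to 1 of the 10.

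Library weights raised each count of genes called: 4986 averaged, 4483 in females, 2326 in males, 675 for the sex difference (1 of the 10 lower), 28 within SG and 1819 within YSGr (1 of the 10 lower). The cause was not tested. Every other count of the 10 genes or of all genes stayed within 1.5 times of its value above.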

Other observations

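The 3 carriers that did not pass between genotypes were also set against Cdh5 within each library. The log2 ratio of Slco1a4 to Cdh5 was 0.31 to 0.98 in YSGr libraries (median 0.72) and -0.63 to 0.43 in SG libraries (median -0.18), and 5 of the 6 YSGr libraries were above every SG library. That of Abcb1a to Cdh5 was -0.32 to 0.56 in YSGr libraries (median 0.11) and -1.09 to -0.22 in SG libraries (median -0.71), again with 5 of 6 above every SG library. That of Slc2a1 to Cdh5 was 2.27 to 3.63 in YSGr libraries (median 2.97) and 1.79 to 3.00 in SG libraries (median 2.04), with 2 of 6 above every SG library. Higher ratios were not particular to the carriers. For Emcn the median was -1.47 in YSGr libraries and -2.15 in SG libraries, and for Pecam1 it was 0.09 and -0.18. Cldn5 and Mfsd2a had lower medians in YSGr libraries, 0.35 and 0.27, than in SG libraries, 0.75 and 0.80. Esam and Tie1 kept nearly the same median ratio to Cdh5, at -0.58 and -0.52 in YSGr libraries and -0.55 and -0.59 in SG libraries. These ratios share the Cdh5 value, which fell itself, and were not tested. The share of all genes with such counts was not computed.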
